A study of Mus musculus with 10 samples.

Results

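The genes described here are 10 mouse genes of the extracellular matrix that encode no collagen, namely *Fn1*, *Sparc*, *Postn*, *Tnc*, *Thbs1*, *Thbs2*, *Fbn1*, *Eln*, *Lox* and *Bgn*. They were chosen by gene symbol from a table of 47069 genes, each symbol gave 1 gene, and all 10 passed the filter on low counts and are among the 16179 genes tested. RNA-seq was performed on libraries labelled as intestinal organoids, crypt-derived cultures grown in Matrigel, a protein gel rich in basement membrane, with Noggin, EGF and R-spondin-1. Per the study, the mice were C57BL/6 and carried *Lgr5-EGFP-CreERT2* together with *Ppp2r1a flox/flox*, so that every group, control included, carried the floxed alleles and the Cre. The Cre is driven by *Lgr5*, a marker of crypt stem cells, and it becomes active after tamoxifen (TAM), which removes the scaffold subunit A alpha of the phosphatase PP2A in those cells and so in their descendants. All cultures were kept for 50 days and fell into 5 groups of 2 libraries. These were control (saline), DMBA (7,12-dimethylbenzanthracene, a carcinogen, labelled long), TAM short, TAM long and DMBA+TAM (the carcinogen with tamoxifen). In full, the labels of TAM short and TAM long read Dosage-sensitive TAM, while that of DMBA+TAM reads TAM. What short and long stand for is not explained in the sources used here. Library titles begin with NS in control, NL in DMBA, DSS_S in TAM short, DSS_L in TAM long and Lgr5 in DMBA+TAM. What these prefixes mean in the titles is not explained. The study uses DSS for dextran sulfate sodium where it cites work on colitis, but not for these libraries. An age is given for mice injected with tamoxifen but not for those behind the cultures. Repeated cultures are described for the organoid assays in general, but no source ties the 2 sequenced libraries of a group to separate cultures or animals. The p-values therefore measure the spread between these samples, which may be technical.

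Fibroblasts and other mesenchymal cells make most of the interstitial matrix of the gut wall, while the epithelium rests on a basement membrane. Fibronectin and fibrillin fibres are laid down outside the cell, bind collagens, elastin and latent growth factors, and are read by integrins. Matricellular proteins such as SPARC, periostin, tenascin C and the thrombospondins are secreted into the same space, where they modulate adhesion and fibre assembly more than they bear load, and lysyl oxidase crosslinks elastin and collagen.

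DMBA+TAM libraries held 1592366 and 1915270 counts, and the other 8 held 8828247 to 10923673, so that low levels were measured least precisely in DMBA+TAM. *Ppp2r1a*, the targeted gene, had 123 and 129 normalized CPM (read counts scaled to library size with TMM factors) in control, 131 and 147 in TAM short, 169 and 157 in TAM long, 167 and 153 in DMBA, and 129 and 133 in DMBA+TAM. Counts over a whole gene cannot show the loss of the floxed exons, so this is no check of the deletion. Epithelial markers, which define the labelled tissue, were near 0 in DMBA+TAM. There 8 of 12 (*Epcam*, *Krt18*, *Vil1*, *Cldn3*, *Cldn7*, *Elf3*, *Cdx1* and *Cdx2*) had 3 counts or fewer in each library, and the 12 summed to 34.3 and 23.4 CPM against 14038 to 23477 in the other 8 libraries. The 2 libraries thus go against their label as intestinal organoids and may not be such cultures, which touches each DMBA+TAM value and the interaction, and DMBA+TAM is used below as the name of the libraries so labelled. DMBA and TAM long also differed from control and TAM short in gut segment genes. A list of 10 small intestinal genes summed to 21227 to 28686 CPM in the 4 control and TAM short libraries and to 22.1 to 298 in the 4 DMBA and TAM long libraries, and 5 colon genes to 40.1 to 55.7 and 3274 to 12003. Control and TAM short also differed in regional genes of the small intestine. *Lct* (lactase, of the proximal part) had 1280 and 1555 CPM in control and 3.05 and 0.883 in TAM short. *Fabp6* (a bile acid binding protein of the ileum) had 2.83 and 0.241 in control and 7847 and 8965 in TAM short. Of the 10 small intestinal genes 2 were higher and 5 lower in TAM short, where 1055 and 1262 of all 16179 genes tested were. Treatment and gut region therefore cannot be told apart in TAM short against control either, nor in comparisons across these pairs of groups.

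The promoters of 6 of the 10 genes (*Bgn*, *Fbn1*, *Postn*, *Sparc*, *Thbs2* and *Tnc*) were matched in RefSeq on GRCm38.p6, and *Fn1*, *Thbs1*, *Eln* and *Lox* were not matched. The 250 bases before the start site are printed for 3 of them. *Postn* and *Thbs2* had the smallest and the largest rise in DMBA+TAM against control among the 6, and *Bgn* had the most matches to any 1 motif. Capitals mark matches, on either strand, to the TATA box (letters TATAAA), the GC box (letters GGGCGG) or the SMAD box (letters CAGACA). *Postn* is at chr3:54360857-54361106 on the plus strand, *Thbs2* at chr17:14694263-14694512 on the minus strand and *Bgn* at chrX:73483351-73483600 on the plus strand, each written 5′ to 3′ in the direction of the gene.
Postn: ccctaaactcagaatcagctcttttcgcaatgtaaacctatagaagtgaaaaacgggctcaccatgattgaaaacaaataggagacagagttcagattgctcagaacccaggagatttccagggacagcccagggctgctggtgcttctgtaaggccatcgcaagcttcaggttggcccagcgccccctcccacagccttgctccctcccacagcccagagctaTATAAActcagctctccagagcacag
Thbs2: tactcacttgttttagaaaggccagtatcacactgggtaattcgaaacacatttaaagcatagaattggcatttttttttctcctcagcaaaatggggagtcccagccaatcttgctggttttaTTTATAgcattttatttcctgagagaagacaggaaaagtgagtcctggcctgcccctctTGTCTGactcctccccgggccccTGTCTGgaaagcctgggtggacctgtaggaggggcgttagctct
Bgn: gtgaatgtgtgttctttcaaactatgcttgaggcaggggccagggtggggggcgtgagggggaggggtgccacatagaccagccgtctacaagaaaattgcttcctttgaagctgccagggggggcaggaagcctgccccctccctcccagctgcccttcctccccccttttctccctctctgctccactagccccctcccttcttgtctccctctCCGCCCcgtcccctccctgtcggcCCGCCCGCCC

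Motifs were searched on both strands from 250 bases before to 50 after the start. For *Fbn1* the start used lies 1555 bases from the listed gene start, and for the others at most 2. The TATA box letters were found in 3 of the 6 (*Postn*, *Thbs2* and *Tnc*) and in 14.1% of all 27025 promoters of that length. In *Postn* they lie from base -26 to base -21 before the start, and in both *Thbs2* and *Tnc* from -126 to -121. GC box letters were in *Bgn*, *Fbn1* and *Tnc* and in 35.6% of all promoters, and in *Bgn* there were 3 matches, of which those at -10 to -5 and -6 to -1 overlap. SMAD box letters were in *Sparc*, *Thbs2* and *Tnc* (21.1% of all promoters), with 2 matches before the start of *Thbs2*. The letters CAGGTG, an E-box form bound by Snail, were in *Sparc* alone (20.0%). The AP-1 letters TGANTCA (7.91%), the TEAD letters GGAATG (14.6%) and the CArG box (1.54%) were in none of the 6 windows. These matches describe letters in a short window.

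Each of the 10 genes rose in DMBA+TAM against all 4 other groups, and no call or direction changed without either DMBA+TAM library. The median rise against control was 42.3-fold, from 12.3-fold for *Eln* to 399-fold for *Lox*. Of all 16179 genes tested, 29.0% rose against control at an adjusted p under 0.05 (edgeR quasi-likelihood test with Benjamini-Hochberg adjustment), 29.3% against TAM short, 25.3% against TAM long and 25.2% against DMBA, and 18.4% rose against each of the 4 groups. For each of the 10 genes both DMBA+TAM libraries lay above all 8 others, which was so for 24.7% of all genes. Median log2 fold changes of the 10 genes were 5.40 against control, 6.07 against TAM short, 4.69 against TAM long and 3.84 against DMBA, where medians over all genes were -0.17, -0.14, -0.14 and -0.14. Together the 10 genes took 3.00% and 2.90% of all counts in DMBA+TAM, 0.24% and 0.19% in DMBA, 0.122% and 0.155% for TAM long, 0.0623% and 0.0544% for control and 0.0436% and 0.033% for TAM short. The study names fibronectin among its markers of epithelial-mesenchymal transition for these samples, so the direction of *Fn1* is not independent evidence. In bulk RNA, more cells of a type and more RNA per cell cannot be told apart.

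**Figure D1:**
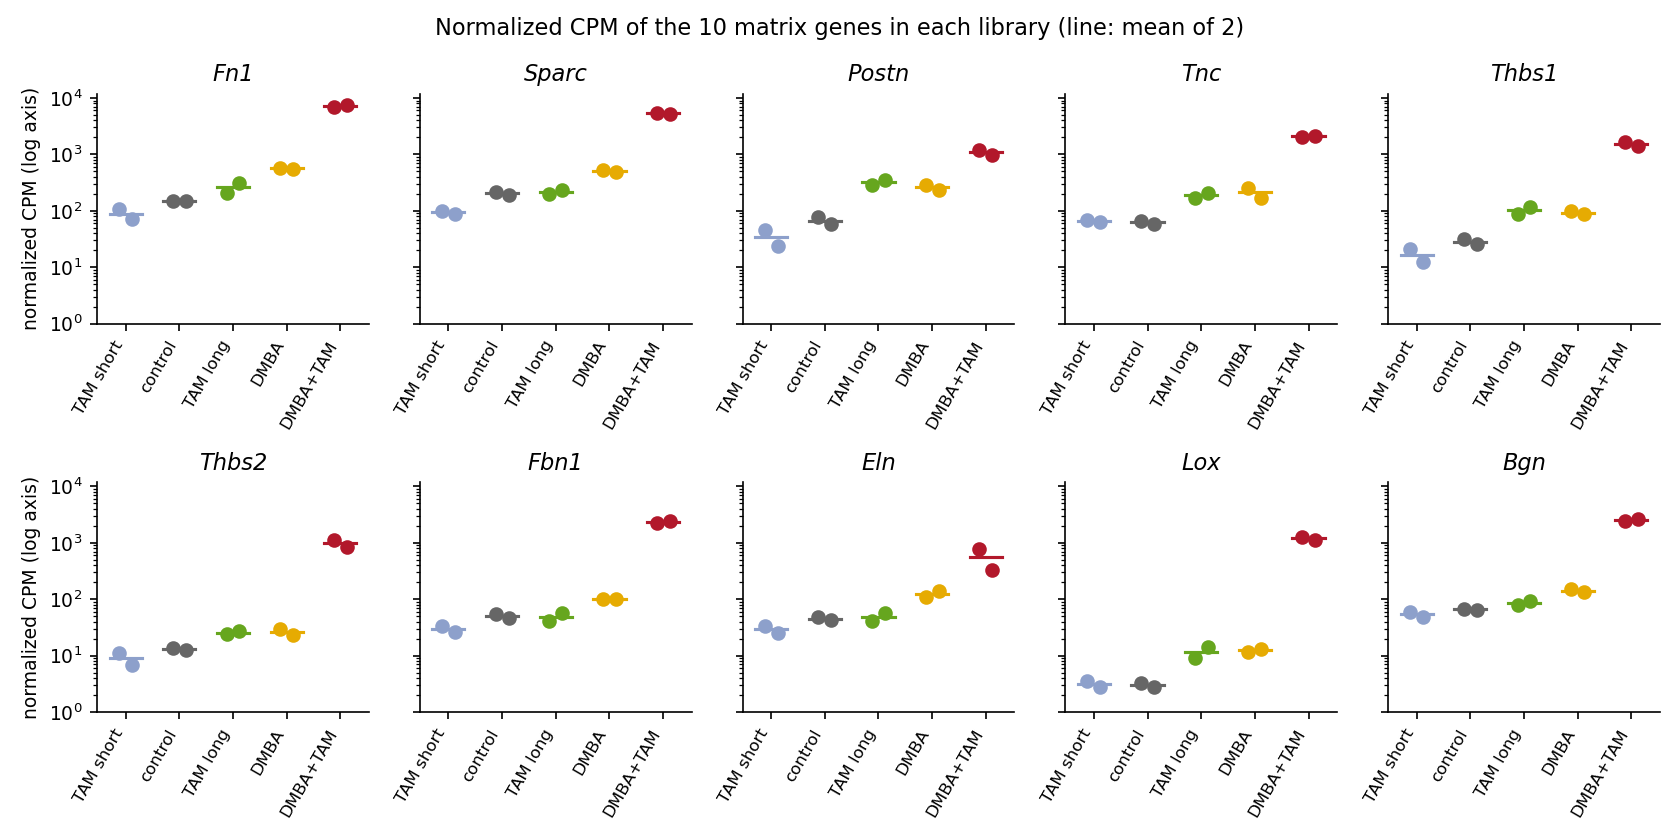
Normalized CPM (log axis) of each gene in each library, by group. Points are the 2 libraries and the line is their mean. Both DMBA+TAM libraries lie above the other 8 for each of the 10 genes, and the DMBA+TAM points of *Eln*, 784 and 334, lie farthest apart.

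*Fn1* (ENSMUSG00000026193, chromosome 1, 71585520 to 71653200 on the minus strand of GRCm38) encodes fibronectin, which links integrins to collagen and fibrin. Its normalized CPM was 151 and 149 in control, 107 and 71.8 in TAM short, 208 and 317 in TAM long, 584 and 560 in DMBA and 6964 and 7357 in DMBA+TAM. No groups overlapped, with TAM short lowest and DMBA+TAM highest. DMBA+TAM was 47.7-fold higher than control (95% interval 31.3 to 72.7, log2 5.58 with SE 0.27, adjusted p = 9.77e-08). DMBA was 3.81-fold higher than control (2.66 to 5.45, adjusted p = 0.000128). The rise in TAM long was 1.75-fold (1.23 to 2.48, adjusted p = 0.0155), and it did not pass without either control library or without TAM long replicate 2 (adjusted p = 0.0845, 0.0952 and 0.165).

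*Tnc* (ENSMUSG00000028364, chromosome 4, 63959785 to 64047015, minus strand) encodes tenascin C, a large glycoprotein of wound and tumor stroma. Normalized CPM was 66.7 and 58.8 in control, 69.6 and 62.3 in TAM short, 167 and 208 in TAM long, 254 and 170 in DMBA and 2067 and 2087 in DMBA+TAM. Control and TAM short overlapped, as did TAM long and DMBA, so that the gene had 3 separate levels. It was 33.1-fold higher in DMBA+TAM than in control (23.3 to 47.1, log2 5.05 with SE 0.23, adjusted p = 6.27e-08). DMBA was 3.38-fold higher than control (adjusted p = 8.87e-05) and TAM long 2.99-fold (adjusted p = 0.000176).

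*Postn* (ENSMUSG00000027750, chromosome 3, 54361109 to 54391037, plus strand) encodes periostin, which binds tenascin C and fibronectin and is made by fibroblasts around the crypt. Its level in normalized CPM was 77.0 and 57.4 in control, 45.2 and 23.7 in TAM short, 292 and 356 in TAM long, 287 and 233 in DMBA and 1179 and 983 in DMBA+TAM. TAM long libraries lay above both DMBA libraries, and both groups above control. The 16.1-fold rise of DMBA+TAM over control (10 to 25.7, log2 4.01 with SE 0.30, adjusted p = 1.77e-06) left it 3.34-fold above TAM long (2.18 to 5.12, adjusted p = 0.000434), the smallest of the 10 rises in that comparison. In TAM long it was 4.81-fold higher than in control (3.11 to 7.46, adjusted p = 0.000169), and in DMBA 3.86-fold (adjusted p = 0.000378).

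*Thbs1* (ENSMUSG00000040152, chromosome 2, 118111876 to 118127133, plus strand) encodes thrombospondin 1, an inhibitor of blood vessel growth that can release active TGF-beta. Libraries had normalized CPM of 31.5 and 25.4 in control, 21.1 and 12.4 in TAM short, 86.9 and 119 in TAM long, 98.5 and 86.6 in DMBA and 1644 and 1408 in DMBA+TAM. Apart from the overlap of TAM long and DMBA the groups were separate. DMBA+TAM was 53.5-fold higher than control (34.2 to 83.8, log2 5.74 with SE 0.29, adjusted p = 1.19e-07). Against control, DMBA rose 3.25-fold (adjusted p = 0.000417) and TAM long 3.61-fold (adjusted p = 0.000265).

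*Thbs2* (ENSMUSG00000023885, chromosome 17, 14665500 to 14694262, minus strand) encodes thrombospondin 2, which has a role in collagen fibril assembly. In normalized CPM it had 13.9 and 12.6 in control, 11 and 6.94 in TAM short, 24.0 and 27.4 in TAM long, 29.6 and 23.1 in DMBA and 1123 and 851 in DMBA+TAM. Only TAM long and DMBA overlapped. The rise of DMBA+TAM over control was 74.2-fold (49.7 to 111, log2 6.21 with SE 0.26, adjusted p = 3.95e-08), whereas DMBA rose 1.99-fold (1.40 to 2.82, adjusted p = 0.00521) and TAM long 1.93-fold (1.36 to 2.74, adjusted p = 0.00671). Without control replicate 2, neither the DMBA nor the TAM long call passed (adjusted p = 0.0531 and 0.0623). With counts thinned to the smallest library, the TAM long value was 0.38 on the log2 scale in place of 0.95 and did not pass (adjusted p = 0.354).

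*Sparc* (ENSMUSG00000018593, chromosome 11, 55394500 to 55420080, minus strand) encodes a collagen-binding glycoprotein also known as osteonectin. Normalized CPM values were 212 and 194 in control, 100 and 87.7 in TAM short, 198 and 238 in TAM long, 520 and 493 in DMBA and 5422 and 5219 in DMBA+TAM. Control and TAM long overlapped, and TAM short lay below both. *Sparc* was 26.2-fold higher in DMBA+TAM than in control (20.3 to 34.0, log2 4.71 with SE 0.17, adjusted p = 2.05e-08) and 2.50-fold higher in DMBA than in control (1.99 to 3.13, adjusted p = 7.52e-05). TAM long was 1.08 times control (0.862 to 1.34, adjusted p = 0.571). TAM short was 0.463 times control (0.369 to 0.58, adjusted p = 0.00104).

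*Bgn* (ENSMUSG00000031375, chromosome X, 73483602 to 73495933, plus strand) encodes biglycan, a small leucine-rich proteoglycan that binds collagen and growth factors. Its libraries had normalized CPM of 67.6 and 65.6 in control, 60.1 and 47.7 in TAM short, 80.6 and 93.8 in TAM long, 150 and 134 in DMBA and 2464 and 2609 in DMBA+TAM. The groups did not overlap. *Bgn* was 38.1-fold higher in DMBA+TAM than in control (29.0 to 49.9, log2 5.25 with SE 0.17, adjusted p = 1.61e-08) and 2.13-fold higher in DMBA (1.69 to 2.68, adjusted p = 0.000284). TAM long was 1.31 times control with an interval of 1.04 to 1.65 and did not pass after adjustment (adjusted p = 0.0561).

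*Fbn1* (ENSMUSG00000027204, chromosome 2, 125300594 to 125507993, minus strand) encodes fibrillin 1, the backbone of the microfibrils on which elastin is laid down. The normalized CPM was 54.5 and 45.9 in control, 33.3 and 26.2 in TAM short, 41.7 and 56.4 in TAM long, 101 and 101 in DMBA and 2286 and 2446 in DMBA+TAM. TAM long spanned the control values, and both DMBA libraries were above them. DMBA+TAM was 47.1-fold higher than control (34.0 to 65.3, log2 5.56 with SE 0.21, adjusted p = 2.48e-08) and DMBA 2.01-fold (1.53 to 2.65, adjusted p = 0.00126). For TAM long the value was 0.977 times control (0.742 to 1.29, adjusted p = 0.892), and its sign turned under other settings.

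*Eln* (ENSMUSG00000029675, chromosome 5, 134702593 to 134747323, minus strand) encodes tropoelastin, the soluble unit of elastic fibres. It had normalized CPM of 47.9 and 42.9 in control, 33.8 and 25.6 in TAM short, 40.5 and 57.9 in TAM long, 109 and 139 in DMBA and 784 and 334 in DMBA+TAM. The DMBA+TAM libraries differed 2.35-fold from each other, more than for any other of the 10 genes in that group, where the next was *Thbs2* at 1.32-fold. DMBA+TAM was 12.3-fold higher than control (6.87 to 22.0, log2 3.62 with SE 0.37, adjusted p = 1.65e-05), and the log2 value was 2.85 without DMBA+TAM replicate 1. Without that library the log2 rise was 3.47 against TAM short, 2.77 against TAM long and 1.42 against DMBA, down from 4.23, 3.51 and 2.17. DMBA was 2.74-fold higher than control (1.59 to 4.70, adjusted p = 0.0071), a call that did not pass without control replicate 2 (adjusted p = 0.065). DMBA+TAM replicate 1, the higher one for *Eln*, had 3054 summed CPM of 5 fat cell markers and 5.28 of 6 skeletal muscle markers, and replicate 2 had 1322 and 7342, and the part of these differences in the *Eln* values was not tested.

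*Lox* (ENSMUSG00000024529, chromosome 18, 52516069 to 52529867, minus strand) encodes lysyl oxidase, the enzyme that crosslinks elastin and collagen. It had 29 and 23 counts in control, 31 and 22 in TAM short, 107 and 143 in TAM long, 129 and 118 in DMBA and 2441 and 2595 in DMBA+TAM. As normalized CPM these were 3.28 and 2.77, 3.50 and 2.78, 9.23 and 14.1, 11.5 and 13.3, and 1289 and 1143. Control and TAM short overlapped, and TAM long spanned the DMBA values. The rise of DMBA+TAM over control was 399-fold (266 to 599, log2 8.64 with SE 0.26, adjusted p = 1.13e-08), and its interval lay above those of the other 9 genes. With limma on log2(FPKM + 1), a scale that understates changes of low genes, the log2 value was 7.78. Over DMBA the rise was 98.2-fold (68.7 to 140, adjusted p = 2.81e-08).

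**Figure D2:**
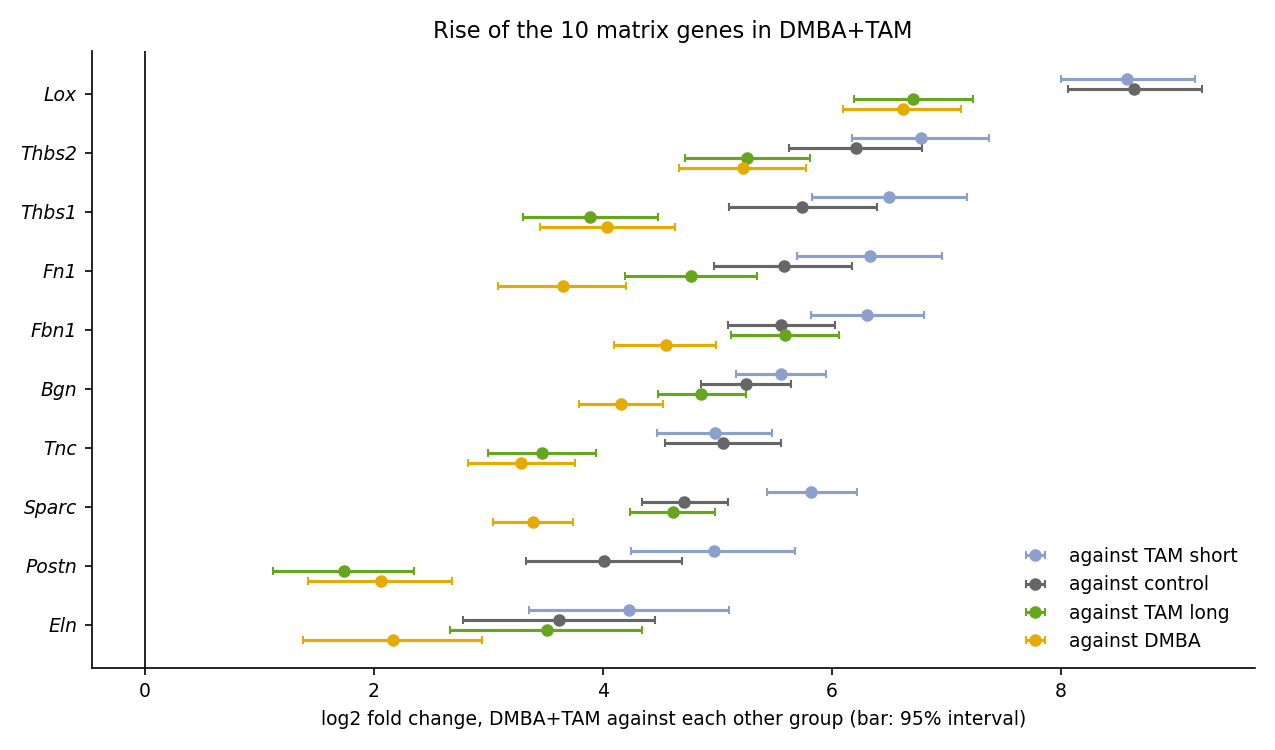
Log2 fold change of DMBA+TAM against TAM short, control, TAM long and DMBA for each gene, with 95% intervals from edgeR and genes ordered by the value against control. *Lox* is highest in all 4 comparisons, *Postn* is lowest against TAM long and DMBA (1.74 and 2.06), and no interval reaches 0. Without DMBA+TAM replicate 1, a fit not drawn here, *Eln* is at 1.42 against DMBA and lies below *Postn*.

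Per length, in deposited FPKM, *Sparc* was the most abundant of the 10 in each group and *Lox* the least in each group except DMBA+TAM. In control, mean FPKM was 135 ± 11.5 (SD, n = 2) for *Sparc*, 38.5 ± 1.73 for *Bgn*, 31.1 ± 1.08 for *Fn1*, 25.0 ± 5.73 for *Postn*, 14.0 ± 1.44 for *Eln*, 8.86 ± 1.00 for *Tnc*, 7.41 ± 1.30 for *Thbs1*, 5.37 ± 0.779 for *Fbn1*, 1.90 ± 0.173 for *Thbs2* and 0.634 ± 0.0905 for *Lox*. Among neighbours in this order, *Fn1* and *Postn*, *Tnc* and *Thbs1*, and *Thbs1* and *Fbn1* differed by less than the sum of their SDs. In DMBA+TAM mean FPKM was 4978 ± 148 for *Sparc*, 2081 ± 75.2 for *Fn1*, 2060 ± 77.4 for *Bgn*, 564 ± 73.8 for *Postn*, 557 ± 62.5 for *Thbs1*, 412 ± 1.79 for *Tnc*, 358 ± 31.2 for *Lox*, 355 ± 15.9 for *Fbn1*, 242 ± 138 for *Eln* and 198 ± 39.0 for *Thbs2*. Here *Fn1* and *Bgn*, *Postn* and *Thbs1*, *Lox* and *Fbn1*, *Fbn1* and *Eln*, and *Eln* and *Thbs2* differed by less than the sum of their SDs. *Lox* went from position 10 to position 7 of the 10, or to position 5 by CPM per kb of the listed gene length, since the length behind the deposited FPKM differs from the listed one for 9 of the 10 genes. Among all 16179 genes tested, mean FPKM of *Sparc* ranked 875 in control and 4 in DMBA+TAM, *Fn1* 3416 and 17, *Bgn* 2869 and 18, and *Lox* 13233 and 267.

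**Figure D3:**
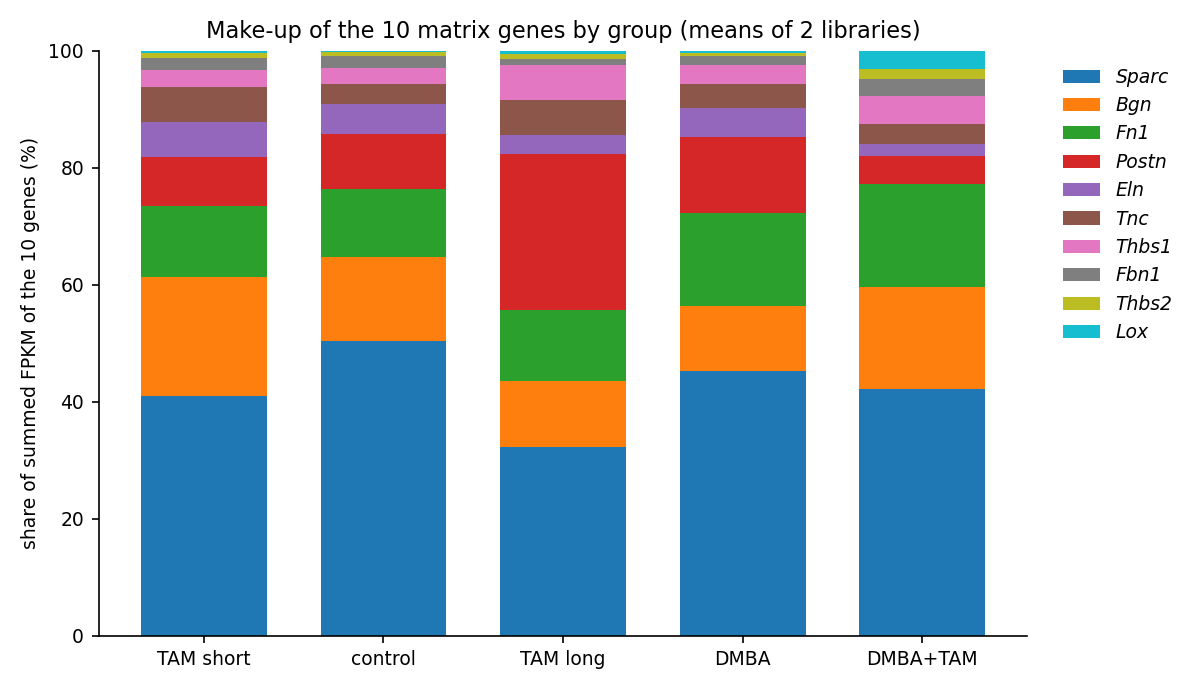
Share of each gene in the summed mean FPKM of the 10 genes, by group, as stacked bars in percent. *Sparc* makes up 50.4% in control and 42.2% in DMBA+TAM, *Postn* makes up 26.7% in TAM long against 4.78% in DMBA+TAM, and *Lox* goes from 0.237% in control to 3.03% in DMBA+TAM.

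DMBA and TAM long were each compared with control. Both also differed from control in gut segment genes, so that treatment and segment cannot be told apart here. All 10 genes were higher in DMBA, from 1.99-fold for *Thbs2* to 4.07-fold for *Lox*, where 24.5% of all genes tested were higher. Their median log2 fold change was 1.58 (0.07 over all genes), and both DMBA libraries lay above both control libraries for all 10, as for 38.7% of all genes. In TAM long 6 of 10 were higher (*Fn1*, *Tnc*, *Postn*, *Thbs1*, *Thbs2* and *Lox*), where 23.2% of all genes were, and none was lower. The values not past the threshold were log2 0.39 for *Bgn*, 0.11 for *Sparc*, 0.11 for *Eln* and -0.03 for *Fbn1*. With library size scaling *Bgn* (0.70, adjusted p = 0.00615) and *Sparc* (0.42, adjusted p = 0.0422) passed too. The TAM long libraries lay above both control libraries for 7 of 10 genes (40.7% of all genes), with *Sparc*, *Fbn1* and *Eln* as exceptions. For the same 7 genes all 4 DMBA and TAM long libraries lay above all 4 of control and TAM short (24.2% of all genes).

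TAM long was therefore set against DMBA directly, a comparison in which 437 of all 16179 genes tested passed. None of the 5 colon genes did, although *Hoxb13*, of the distal colon, had 2.59 and 186 CPM in DMBA and 1.12 and 11.6 in TAM long. Of the 10 small intestinal genes 1 passed, *Apob*, with 24.3 and 9.77 CPM in DMBA and 142 and 87.8 in TAM long. *Sparc* was 0.431 times its DMBA level in TAM long (0.344 to 0.539, adjusted p = 0.00326), *Fbn1* 0.485 (0.368 to 0.638, adjusted p = 0.0202), *Fn1* 0.459 (0.323 to 0.652, adjusted p = 0.0362) and *Bgn* 0.615 (0.489 to 0.773, adjusted p = 0.0407). These 4 of 10 were lower, against 1.46% of all genes tested, and *Eln* at 0.395 did not pass (0.231 to 0.676, adjusted p = 0.0725). For those 5 genes both DMBA libraries lay above both TAM long libraries, as for 24.4% of all genes. The other 5 genes did not pass in either direction. *Postn* was 1.25 times its DMBA level (0.822 to 1.89), *Thbs1* 1.11 (0.771 to 1.6), *Thbs2* 0.971 (0.696 to 1.36), *Lox* 0.939 (0.687 to 1.28) and *Tnc* 0.883 (0.656 to 1.19). Without TAM long replicate 1 none of the 4 passed (adjusted p from 0.0591 to 0.268), with log2 values of -1.09 for *Sparc*, -0.84 for *Fbn1*, -0.85 for *Fn1* and -0.60 for *Bgn* in place of -1.21, -1.04, -1.12 and -0.70, and genes called in all fell from 437 to 58. *Bgn* also did not pass without TAM long replicate 2 or DMBA replicate 1. Fitted on the 4 libraries of these groups alone, none of the 4 passed, with 29 genes called in all.

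TAM short was set against control, groups that both express small intestinal genes but differ in the regional ones (*Lct*, *Fabp6*), so that treatment and region cannot be told apart in the values that follow. *Sparc*, *Fbn1* and *Postn* were lower, 3 of 10 against 7.8% of all genes tested. *Fbn1* was 0.594 times control (0.449 to 0.786, adjusted p = 0.0226) and *Postn* 0.514 times (0.333 to 0.792, adjusted p = 0.0478). Among the others *Fn1* was 0.595 times control (adjusted p = 0.0553), *Thbs1* 0.59 (adjusted p = 0.0765), *Thbs2* 0.677, *Eln* 0.655, *Bgn* 0.809, *Tnc* 1.05 and *Lox* 1.04, and none of these passed. For 8 of 10 genes, all but *Tnc* and *Lox*, both control libraries lay above both TAM short libraries (34.9% of all genes). The call of *Fbn1* was lost whichever of the 4 libraries was left out, that of *Postn* in each case except without TAM short replicate 1, where instead *Thbs1* passed (adjusted p = 0.0365). *Sparc* passed in all of these fits.

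**Figure D4:**
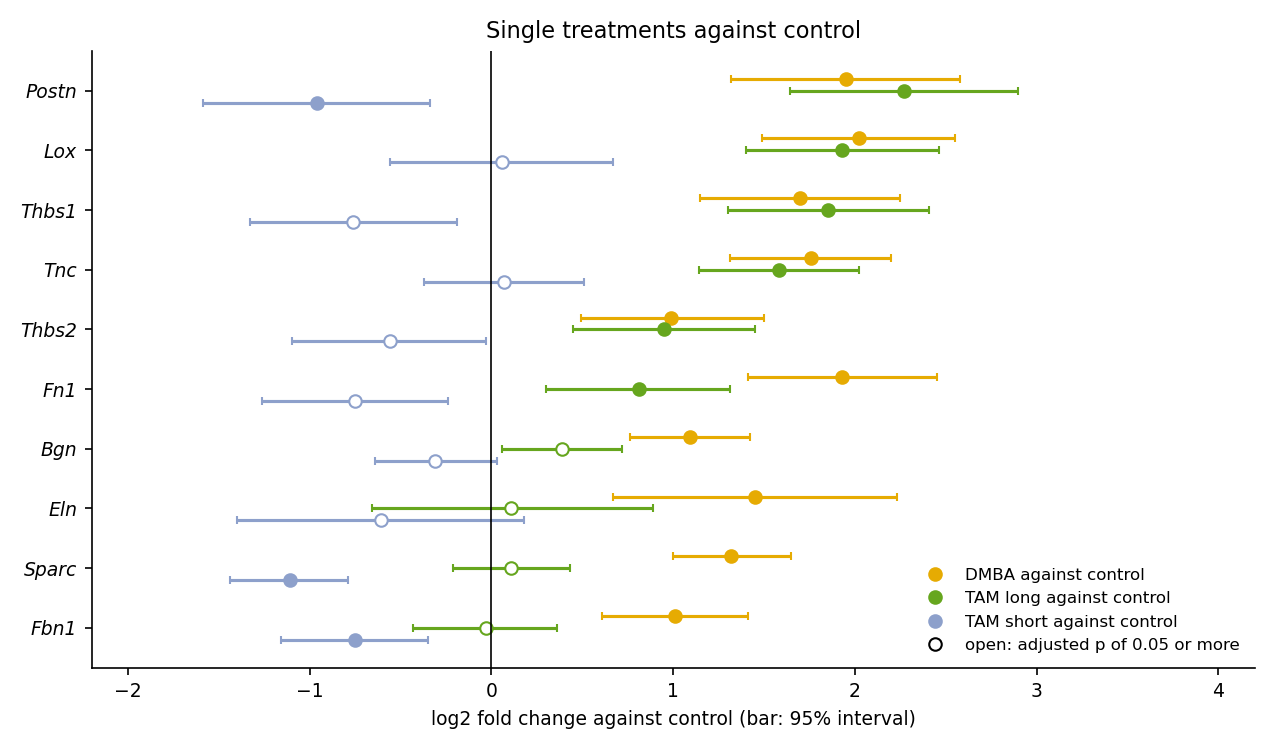
Log2 fold change of DMBA, TAM long and TAM short against control for each gene, with 95% intervals from edgeR, ordered by TAM long. Open points did not pass the threshold. DMBA points lie at 0.99 or more for all 10 genes, while TAM long points run from 2.27 (*Postn*) to -0.03 (*Fbn1*). Treatment and gut region cannot be told apart in these comparisons.

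The interaction of the carcinogen and tamoxifen compared the step from DMBA to DMBA+TAM with the step from control to TAM long. It was above 0 and passed for 9 of 10 genes, where 21.6% of all genes tested did, with a median log2 value of 3.06 (-0.12 over all genes). *Lox* had the highest value, 4.69 (SE 0.32, adjusted p = 2.29e-06), followed by *Fbn1* with 4.58 (SE 0.26) and *Thbs2* with 4.27 (SE 0.32). *Postn* was the exception, with -0.21 (95% interval -1.06 to 0.64, adjusted p = 0.678). Its 4.16-fold step from DMBA to DMBA+TAM stood beside a 4.81-fold step from control to TAM long. The short or long state of DMBA+TAM is not in its label, and it lacked markers of both gut segments (45.4 and 54.2 summed CPM of small intestinal and 8.97 and 18.5 of colon genes), so that segment and interaction cannot be told apart.

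Markers of cells that could be present in crypt cultures were summed beside the 10 genes. The 10 genes summed to 24437 and 25221 CPM in DMBA+TAM against 367 to 2145 in the others, and 10 fibroblast markers to 2581 and 2743 against 131 to 337. Against control 9 of those markers rose in DMBA+TAM (29.0% of all genes tested), and *Tcf21* was lower, with at most 3 counts in each DMBA+TAM library. Relative to control the matrix sum was 36.0-fold in DMBA+TAM, 2.97-fold in DMBA, 1.91-fold for TAM long and 0.617-fold for TAM short, and the fibroblast sum 18.2, 1.88, 2.19 and 0.969. The fibroblast sums of DMBA (306 and 242) and TAM long (302 and 337) overlapped, and no test of the sums was run. Smooth muscle markers (10) moved otherwise, with 1621 and 1803 CPM in DMBA+TAM, 8526 to 15338 in the DMBA and TAM long libraries and 1825 to 3403 in control and TAM short. Against control 9 of them were higher in both DMBA and TAM long, where 24.5% and 23.2% of all genes tested were, and in DMBA+TAM 6 were lower (35.3% of all genes) and 2 higher (29.0%).

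Of 10 immune markers 7 rose against control in DMBA+TAM, beside 29.0% of all genes (4283 and 4372 summed CPM against 131 to 356 in the other 8 libraries), while *Cd3e* and *Cd79a* had 3 counts or fewer in each DMBA+TAM library. Of 10 endothelial markers 9 were higher (908 and 935 against 112 to 203). Fat cell markers (5, of which 4 were higher) and skeletal muscle markers (6) were given above for DMBA+TAM, and in the other libraries they summed to 44.1 to 195 and 7.69 to 20.5. Pericyte markers (5) summed to 601 and 622 against 147 to 1070, mesothelial markers (5) to 9.25 and 9.50 against 10.5 to 25.1, with 4 of them at 0 in both DMBA+TAM libraries, and enteric neuron and glia markers (6) to 50.2 and 57.5 against 4.16 to 47.5. The part of any of these cells in the levels of the 10 genes was not tested.

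**Figure D5:**
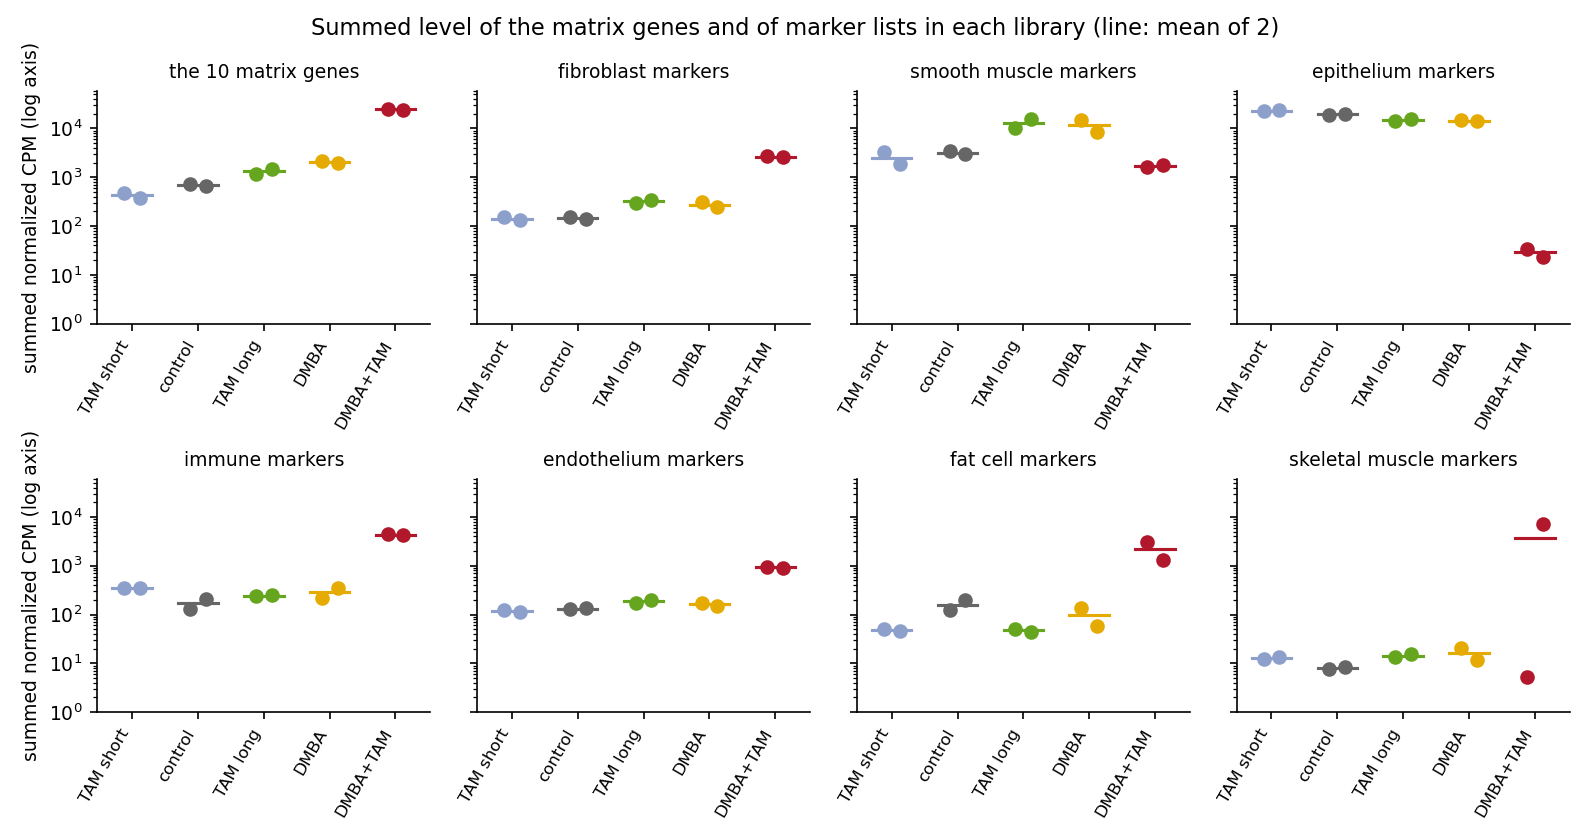
Summed normalized CPM (log axis) of the 10 matrix genes and of 7 marker lists in each library, with points for libraries and lines for means of 2. The matrix, fibroblast, immune, endothelial and fat cell sums are higher in both DMBA+TAM libraries than in the other 8, the epithelial sum is at 34.3 and 23.4 there, and the 2 skeletal muscle points lie at 5.28 and 7342.

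The partners of the 10 genes were followed in 8 lists with 78 genes, of which 76 were tested. Receptors came first. Of 10 surface receptors 8 rose and 2 fell in DMBA+TAM against control, where 29.0% of all genes tested rose and 35.3% fell, and the lists that follow have the same background. *Itgb1*, the beta chain of the fibronectin receptor, had 468 ± 5.59 CPM (SD, n = 2) in control and 1206 ± 46.4 in DMBA+TAM (adjusted p = 1.65e-05), *Itgb5* 52.2 ± 6.54 and 389 ± 27.9, and *Cd47*, a thrombospondin receptor, 124 ± 1.76 and 196 ± 8. *Itgb6*, an epithelial integrin chain, was lower at 29.6 ± 1.40 and 1.10 ± 1.56, and *Itga8*, found on smooth muscle and mesenchyme, at 4.76 ± 0.942 and 1.41 ± 0.50.

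Elastic fibre partners were higher in 13 of 14 cases (29.0% of all genes tested) and lower in none. *Fbln2* (fibulin 2) went from 11.6 ± 1.43 CPM in control to 877 ± 42.4 in DMBA+TAM, *Ltbp2* (a latent TGF-beta binding protein) from 2.87 ± 0.375 to 618 ± 15.6, and *Mfap5* (a microfibril protein) from 3.27 ± 0.146 to 477 ± 22.4. *Ltbp2* did not follow *Fbn1* in DMBA, where it had 2.35 ± 0.465 CPM (adjusted p = 0.475 against control). All 4 lysyl oxidase-like enzymes were higher in DMBA+TAM, among them *Loxl2* (22.6 ± 0.101 in control, 433 ± 9.98 in DMBA+TAM), *Loxl1* (10.4 ± 1.6, 353 ± 22.6) and *Loxl3* (2.53 ± 0.855, 274 ± 2.00). So were the 4 tested of 5 procollagen and matrix processing proteins, including *Bmp1*, the protease that activates lysyl oxidase, at 18.5 ± 0.492 and 558 ± 1.61, *Pcolce* at 12 ± 0.209 and 477 ± 5.83, and *Pcolce2* at 0.753 ± 0.214 and 68.7 ± 4.34.

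Small leucine-rich proteoglycans, the family of *Bgn*, were higher in 7 of 8 cases (29.0% of all genes). *Dcn* (decorin) had 128 ± 4.90 CPM in control and 1165 ± 28.3 in DMBA+TAM, and *Lum* (lumican) 28.9 ± 2.58 and 324 ± 30.0. *Ogn* had 28.1 ± 2.21 in control, 104 ± 17.4 in DMBA+TAM, 214 ± 42.2 in TAM long and 161 ± 23.4 in DMBA, an order unlike that of the 10 genes. Among 15 other matricellular genes 13 were higher and none was lower. *Spp1* (osteopontin, made by macrophages among other cells) had 1.22 ± 0.0278 CPM in control and 2129 ± 324 in DMBA+TAM, where the log2 fold change was 10.75 (adjusted p = 5.11e-09). *Sparcl1*, the relative of *Sparc*, had 172 ± 18.8 in control, 323 ± 14.5 in DMBA+TAM, 598 ± 68.4 in TAM long and 515 ± 209 in DMBA. *Tgfbi* had 309 ± 9.60 in control and 417 ± 7.70 in DMBA+TAM (adjusted p = 0.0268) and was lower in DMBA, at 90.5 ± 15.6.

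Of the basement membrane glycoproteins 9 of 15 were higher and 4 lower, beside 29.0% and 35.3% of all genes. *Hspg2* (perlecan) had 90.5 ± 12.6 CPM in control and 735 ± 28.6 in DMBA+TAM, *Nid1* (nidogen 1) 48.2 ± 5.02 and 842 ± 16.3, and *Lamc1* (laminin gamma 1) 48.1 ± 7.75 and 517 ± 36.0. *Lama3* and *Lamb3*, laminin chains made by epithelia, were among those lower, for example *Lama3* at 31.1 ± 2.87 and 2.86 ± 0.314 (adjusted p = 9.07e-07). Of 6 tested genes for versican, hyaluronan synthesis and its receptor, 4 were higher, among them *Vcan* (5.18 ± 0.346, 390 ± 0.816), *Cd44* (49.1 ± 4.49, 246 ± 18.1) and *Has2* (0.524 ± 0.0591, 35.0 ± 7.76).

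The genes whose pattern was most like that of the 10 were found by Pearson's r between log2 CPM and the mean of the standardized log2 CPM of the 10 genes, as a description. Over 10 libraries these were *Col5a2* (r = 0.9984), *Cadm3* (0.9982), *Fstl1* (0.9976), *Lamc1* (0.9975) and *Ccdc80* (0.9973) of 10096 genes with a mean of 10 CPM or more, of which 1117 had r of 0.9 or more. *Col5a2*, a fibrillar collagen chain, had mean CPM of 52.1 in control, 34.7 in TAM short, 93.5 in TAM long, 141 in DMBA and 2437 in DMBA+TAM. Over the 8 libraries without DMBA+TAM they were *Itpkb* (0.9951), *Ppic* (0.9946), *Rusc2* (0.9946), *Col5a2* (0.9942) and *Fgfr1* (0.9936). Each of the 10 genes was also set against the mean of the other 9. Over 10 libraries r was lowest for *Postn* (0.8878) and highest for *Fn1* (0.9947), and over 8 libraries it ran from 0.8831 for *Eln* to 0.9855 for *Fn1*. The libraries share their group and scaling, and the 2 of a group are not independent points.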

How the data were processed

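RNA was poly-A selected and libraries were made with a NEBNext Ultra kit. Per the study, the authors mapped reads with TopHat, and the deposited counts are reads per gene from HTSeq, with FPKM beside them, on GRCm38.p6. The FPKM values of the authors rest on a gene length that differs from the listed one for 9 of the 10 genes and is the same in every library, so FPKM folds within a gene are not affected. Strand use is not given in the sources used here. An annotated gene (GENCODE M21) overlaps 6 of the 10 (*Fn1*, *Tnc*, *Thbs1*, *Fbn1*, *Eln*, *Lox*), and those with counts had at most 7 in any library. Of 47074 table lines, 5 were fragments of split lines and were left out, as were the p-values and fold changes of the authors' own comparisons.

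The test on counts was that of edgeR 4.0.16, run in R 4.3.3 (low counts removed by filterByExpr, TMM, quasi-likelihood F test, two-sided, 10 libraries and 5 group means), and p-values were adjusted over 16179 genes in each of 9 comparisons with a threshold of 0.05. Normalized CPM uses TMM totals. Intervals are 95% intervals derived from that fit. With 2 against 2 libraries, an exact permutation test could not go below 0.333, so none is given. Replicate numbers were not used to pair the samples in the reported fit. Alternatives were library size scaling, no filter, DESeq2 1.42.0, limma 3.58.1 on log2(FPKM + 1) or log2(FPKM + 0.1), thinned counts, fewer groups, a replicate block, a fold minimum and leaving out each library, where a lone library is assumed to vary like other groups. The edgeR fit was tested on simulated counts for DMBA+TAM against control and for DMBA against control, and the other steps were not. From each partner list the 3 genes highest in mean CPM were named, with up to 3 called against the list's majority, and the 5 genes most like the 10. Some genes under this rule are not reported here. The genes and lists were chosen with earlier results of these data known. Figures were drawn with Python 3.11.15 and matplotlib 3.10.9.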

Additional observations from a re-analysis of the deposited data

Results flagged for a closer look

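The interaction of DMBA and TAM long passed its test for 9 of the 10 genes (edgeR quasi-likelihood test, Benjamini-Hochberg adjustment), that is, the step with tamoxifen differed between cultures with and without the carcinogen, where treatment and gut segment cannot be told apart. It rests on the 2 libraries labelled DMBA+TAM, in which epithelial markers were near 0. The log2 interaction was 4.69 for *Lox*, 4.58 for *Fbn1*, 4.27 for *Thbs2*, 3.77 for *Bgn*, 3.29 for *Sparc*, 2.84 for *Fn1*, 2.19 for *Thbs1*, 2.05 for *Eln* and 1.71 for *Tnc*. Adjusted p ranged from 6.25e-07 for *Fbn1* to 0.00633 for *Eln*, and the *Eln* value was 1.34 without DMBA+TAM replicate 1 (adjusted p = 0.0107).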

How the results depend on the processing

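In the 4 comparisons of DMBA+TAM and in the interaction, no direction and no call of the 10 genes changed under any alternative run (130 values in each comparison and 170 in the interaction). The same fits with the replicate number as a block (replicate block) left those calls as they were. Correlations of same-numbered deviations ran from -0.041 to 0.26, the highest being that of DMBA with TAM long. The block moved the genes called in DMBA+TAM against control from 10396 to 10219, and in TAM long against DMBA from 437 to 469. In DMBA against control 137 of 140 values kept direction and call, and those lost were *Thbs2* (log2 0.99) under a minimum of 1, and *Thbs2* and *Eln* without control replicate 2. The log2 value of *Lox* with limma on log2(FPKM + 1) was 7.78 in DMBA+TAM against control (8.64 in the reported fit), 7.72 against TAM short (8.58), and 1.36 and 1.29 in DMBA and TAM long against control (2.02 and 1.93).

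In TAM long against control *Bgn* passed with library size scaling, DESeq2, both limma fits, thinned counts and only those groups (0.38 to 0.70), and *Sparc* with library size scaling and both limma fits (0.42 each). *Thbs2* was lost with thinned counts (0.38), and *Fn1* and *Thbs2* fell under a log2 minimum of 1.

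In TAM short against control, 3 of 10 genes passed. With no filter 7 passed, with DESeq2 5, with only the 2 groups in the fit 6, 2 each with library size scaling and the 8 libraries without DMBA+TAM, where *Postn* was lost, and 1 each with a log2 minimum of 1, both limma fits and thinned counts. Leaving out 1 library gave 1 to 3. In TAM long against DMBA 4 passed, but 1 with limma on log2(FPKM + 0.1), 0 with only those groups and 0 to 4 leaving out 1 library. *Bgn* was also lost with library size scaling, the log2 minimum and limma on log2(FPKM + 1), and *Fbn1* with thinned counts (adjusted p = 0.0504), while *Eln* passed with no filter, DESeq2 and the 8 libraries without DMBA+TAM. The cause was not tested.

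Signs turned for values near 0. In TAM long against control *Fbn1* had 0.28 with library size only, 0.24 and 0.27 with limma, 0.01 with thinned counts and -0.27 to 0.16 leaving out 1 library, *Sparc* -0.04 to 0.23 and *Eln* -0.17 to 0.34. In TAM short against control *Lox* had -0.08 with thinned counts and -0.13 to 0.21 leaving out 1 library, and *Tnc* -0.02 to 0.17. In TAM long against DMBA, thinned counts gave -0.02 for *Thbs1* and 0.24 for *Lox*, and leaving out 1 library gave -0.44 to 0.14 for *Tnc*, -0.21 to 0.15 for *Thbs2*, -0.42 to 0.19 for *Lox* and -0.09 to 0.36 for *Thbs1*.

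Library size scaling moved the median of all genes by 0.48 in DMBA+TAM against control, 0.31 in DMBA and 0.32 in TAM long against control, and the share of calls that were higher from 45.1% to 62.5%, 51.2% to 71.2% and 50.5% to 72.1%. In TAM short against control this share went from 45.5% to 58.6%, and in DMBA+TAM against TAM short from 46.4% to 61.5%. Genes called in DMBA against control went from 7735 to 4395 with a log2 minimum of 1 and to 4769 with thinned counts. In TAM long against control they went from 7444 to 4221 and 4585, and in TAM short against control from 2317 to 1172 and 1264, to 4317 with only those groups, and to 669 to 1057 leaving out 1 of their own 4 libraries, which moves the background share as well. Without control replicate 2 those of TAM long against control were 4946. In TAM long against DMBA they went from 437 to 1615 with no filter, 857 with DESeq2, 290 and 199 with limma, 221 with a log2 minimum of 1, 218 with thinned counts, 29 with only those groups, 58 and 125 without TAM long replicate 1 and 2, and 1036 without DMBA replicate 1.

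Depth limits *Lox* and *Thbs2* most, at 22 to 31 and 55 to 123 counts in control and TAM short. Each group has 2 libraries, and 1 estimate of the spread is shared by all groups.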
